A study of Mus musculus with 4 samples.

Results

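The glucocorticoid receptor gene Nr3c1, the glucocorticoid-activating enzyme gene Hsd11b1 and 8 genes known to respond to glucocorticoids were compared between dermal and inguinal adipocytes. The genes, selected by symbol, were Nr3c1, Hsd11b1, Sgk1, Fkbp5, Tsc22d3, Zbtb16, Klf9, Errfi1, Mt1 and Mt2. All 10 were among the 18781 genes of the table and all 10 passed the expression filter, as did 12797 genes in all. Mature adipocytes were isolated by enzymatic digestion and flotation from the dorsal skin and from the inguinal fat of mice of the inbred strain C57BL/6 at postnatal day 30. Each depot gave 2 libraries, and no genetic change or treatment is recorded for either depot. The labels give neither the number of animals behind a library nor whether animals were pooled. Levels are normalized CPM, reads counted per gene and scaled to the size of the library. Differences are log2 fold changes of CPM + 0.5, taken as dermal over inguinal, so that a negative value means a higher inguinal level. The pairs of values given for a depot are those of replicate 1 and replicate 2.

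Glucocorticoids enter cells by diffusion and bind the receptor encoded by Nr3c1, which is held in the cytoplasm by heat shock protein chaperones. The bound receptor moves to the nucleus and raises or lowers transcription of its target genes, several of which restrain the response. Adipocytes also make active hormone locally from an inert circulating form through the enzyme encoded by Hsd11b1. In fat, glucocorticoids are known to promote adipocyte differentiation and to alter lipolysis and fat storage.

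The libraries were rich in adipocyte transcripts and differed in markers of adipocytes and of other cells. The table implied 10127125 to 12730013 reads per library, and 3 reads were worth between 0.253 and 0.291 CPM. The 12 adipocyte markers summed to between 37468 and 41557 CPM in the dermal pair and to between 38703 and 43435 CPM in the inguinal pair. Of these 12, 10 had positive log2 fold changes (median 0.43), and 3 (Lep, Plin1 and Cebpa) were called higher in dermal libraries (limma). The 2 with negative values, Cfd (-0.04) and Fabp4 (-0.67), had the highest means of the list and did not pass (limma). Fabp4 averaged 9053.6 CPM in the dermal pair against 14162.5 CPM in the inguinal pair. Of 16 endothelial markers, 15 were higher in inguinal libraries, and their summed level was 601 to 637 CPM in the dermal pair against 2093 to 3145 CPM in the inguinal pair. Of 13 measured macrophage markers, 10 were higher in dermal libraries, with sums of 1665 to 1767 CPM against 600.3 to 640 CPM. Of 23 immediate early and stress genes, 14 were higher on the inguinal side and 2 on the dermal side, with sums of 2633 to 3909 CPM against 7292 to 8030 CPM. Of 9 tested pericyte and smooth muscle markers, limma called 7 towards the inguinal side and 1 towards the dermal side, with sums of 343 to 350.4 CPM in the dermal pair and 462 to 604 CPM in the inguinal pair. Fibroblast and progenitor markers, of which 2 of 12 were higher in dermal libraries, summed to 6628 and 14277 CPM in the dermal pair and 4078 and 6839 CPM in the inguinal pair, so that dermal replicate 2 stood apart. Red blood cell genes summed to 49.8 to 82.2 CPM in the dermal pair and 199 to 380.4 CPM in the inguinal pair, and keratinocyte markers to 51.8 to 83.8 CPM and 16.2 to 24.7 CPM. No measured marker of these lists was at 0 in all libraries. The genes described here are also expressed outside adipocytes, and in such preparations fewer cells of a type and less RNA per cell cannot be told apart.

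Transcripts of the receptor itself did not differ between the depots beyond the spread of the libraries, whereas several responsive genes did, and not all in 1 direction. Sgk1, Errfi1, Mt1 and Mt2 were higher in inguinal libraries and Tsc22d3 was higher in dermal libraries (limma, Benjamini-Hochberg adjusted p below 0.05). These calls covered 5 of the 10 genes, against 16.4% of all tested genes. The 4 genes higher in inguinal libraries compare with 8.8% of all tested genes in that direction, and the 1 gene higher in dermal libraries with 7.56%. The libraries of the depots did not overlap for 7 of the 10 genes, where 61.8% of all tested genes did not overlap. Of these 7 genes, 5 were higher in inguinal libraries, against 30.1% of all tested genes, and 2 in dermal libraries, against 31.6%. The count of 7 thus stood near the background. The 10 genes had a median log2 fold change of -0.40, against 0.02 over all tested genes, and ranged from -1.92 for Sgk1 to 0.86 for Tsc22d3.

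**Figure D1:**
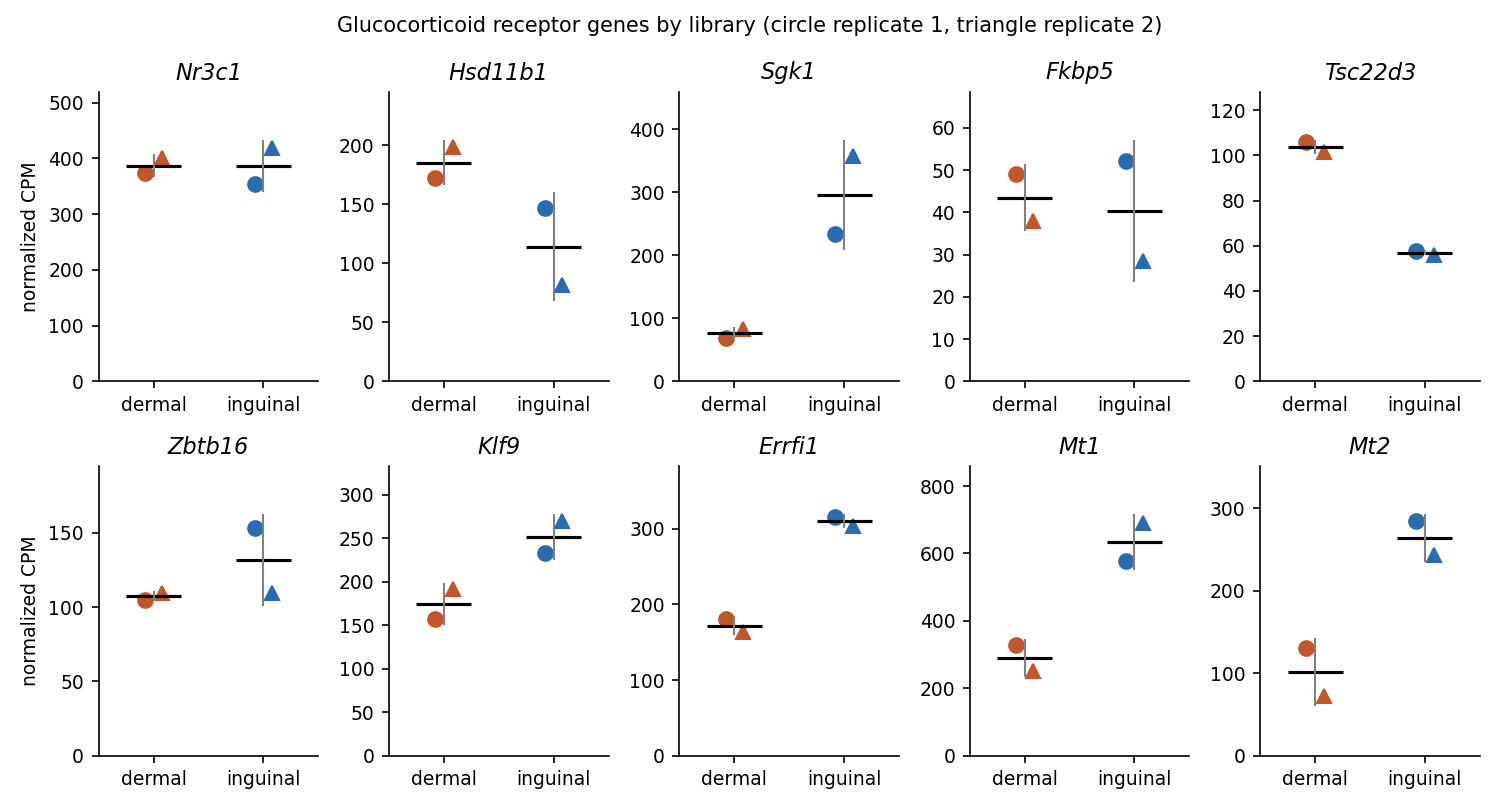
Normalized CPM of each gene in the 4 libraries, on axes that start at 0 and differ between panels; circles are replicate 1, triangles replicate 2, black bars depot means and grey lines the SD (n = 2). Nr3c1 lies between 354 and 419 CPM in all 4 libraries, Sgk1, Errfi1, Mt1 and Mt2 are higher in both inguinal libraries, and Tsc22d3 is higher in both dermal libraries.

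Nr3c1 (chromosome 18, 39410545 to 39519421, minus strand, GRCm38) stood at 373 and 401 CPM in the dermal pair and 354 and 419 CPM in the inguinal pair. The depots overlapped, with the lowest and the highest value both in inguinal libraries. Its log2 fold change was 0.01 (SE 0.14, limma adjusted p = 0.980), with a 95% interval from -0.34 to 0.35, or a fold between 0.791 and 1.28. Its sign turned with edgeR (-0.0035) and DESeq2 (-0.011) and with a library left out (-0.11 without inguinal replicate 1). Nr3c2 encodes the mineralocorticoid receptor, which also binds glucocorticoids with high affinity. Nr3c2 stood at 20.5 and 18.2 CPM in the dermal pair and 16.9 and 23.2 CPM in the inguinal pair, and it did not pass (limma adjusted p = 0.928). Per kilobase of annotated exon, Nr3c1 stood at a level of 59.2 CPM in the dermal and 59.1 CPM in the inguinal pair, and Nr3c2 at 3.13 and 3.24 CPM.

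Hsd11b1 (chromosome 1, 193221634 to 193264075) encodes the dehydrogenase that regenerates active glucocorticoid from its inert form inside cells. It stood at 172 and 199 CPM in the dermal pair and 147 and 81.6 CPM in the inguinal pair. Both dermal values were above both inguinal values, yet inguinal replicate 1 lay closer to the dermal libraries than to the other inguinal library. The log2 fold change was 0.75 (SE 0.27, limma adjusted p = 0.109), which did not pass, with a 95% interval from 0.11 to 1.4. It was 1.18 without inguinal replicate 1 (adjusted p = 0.000614, which passed) and 0.33 without inguinal replicate 2 (adjusted p = 0.179). H6pd supplies the cofactor that lets this enzyme work as a reductase. H6pd stood at 444 and 501 CPM in the dermal pair and 399 and 327 CPM in the inguinal pair, also without passing (log2 fold change 0.38, SE 0.16, limma adjusted p = 0.145). Hsd11b2, whose product inactivates glucocorticoids, had 1 and 3 reads in the dermal and 5 and 4 reads in the inguinal libraries, near the level of 3 reads and below the filter.

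Sgk1 (chromosome 10, 21882184 to 21999903) encodes a serum- and glucocorticoid-inducible protein kinase that acts on ion transport and on forkhead transcription factors. It stood at 69.5 and 83.3 CPM in the dermal pair and 234 and 357 CPM in the inguinal pair. The lowest inguinal value was far above the highest dermal one, although the inguinal libraries themselves differed 1.53-fold. Sgk1 was 3.87-fold higher in inguinal libraries by the depot means, with a log2 fold change of -1.92 (SE 0.22, limma adjusted p = 0.00378). Of all tested genes, 221 had a lower log2 fold change. With each library left out in turn the value stayed between -2.22 and -1.61 and passed each time. The 16 endothelial markers also had negative log2 fold changes (median -1.97), and their part in the Sgk1 difference was not tested.

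Sgk1 had 6 annotated promoter windows, each running from 250 bases before to 50 bases after a RefSeq transcript start. The window at chr10:21993640-21993939 (GRCm38.p6, plus strand) is shown because it held the glucocorticoid response element, the palindromic sequence that binds a receptor dimer. The element was searched on both strands as the arms GNACA and TGTNC with 3 bases between them, and the match, starting 188 bases before the transcript start, is in capitals:
Sgk1: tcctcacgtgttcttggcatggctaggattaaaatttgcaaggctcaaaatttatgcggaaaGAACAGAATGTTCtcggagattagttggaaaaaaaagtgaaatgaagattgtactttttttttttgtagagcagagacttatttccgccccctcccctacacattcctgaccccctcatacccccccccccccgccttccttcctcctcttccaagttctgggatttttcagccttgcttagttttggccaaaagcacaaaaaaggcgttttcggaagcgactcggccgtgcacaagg
The element occurred in 0.475% of the 32851 promoter windows of the reference and in 2 of the 16 windows of the 8 genes that had one. The other match was in the Mt1 window. The single arm AGAACA, searched on both strands, occurred in 4 of the 16 windows and in 19% of all windows. The Sgk1 window held 3 such arms, of which 2 overlapped the full element. These are matches of letters in short windows, and many known receptor sites lie outside such windows.

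Tsc22d3, Fkbp5 and Zbtb16 are widely used as readouts of receptor activity. Tsc22d3 (chromosome X, 140539528 to 140600659) encodes the glucocorticoid-induced leucine zipper protein, an anti-inflammatory mediator that also restrains adipocyte differentiation. It stood at 106 and 101 CPM in the dermal pair and 57.8 and 56.1 CPM in the inguinal pair. The depots were well separated, and the libraries within a depot differed by no more than 1.04-fold. Tsc22d3 was 1.82-fold higher in dermal libraries by the depot means, with a log2 fold change of 0.86 (SE 0.12, limma adjusted p = 0.00760). The value stayed between 0.82 and 0.89 with each library left out, and leaving out dermal replicate 1 ended the call (0.82, limma adjusted p = 0.0602). All 13 measured macrophage markers had positive log2 fold changes (median 1.55), and their part in the Tsc22d3 difference was not tested.

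Fkbp5 (chromosome 17, 28399094 to 28517527) encodes a co-chaperone that lowers the affinity of the receptor for hormone and is itself induced by it. It stood at 49.1 and 37.9 CPM in the dermal pair and 52.2 and 28.5 CPM in the inguinal pair. The depots overlapped completely, with both dermal values lying between the inguinal ones. Its log2 fold change of 0.16 (SE 0.29, limma adjusted p = 0.747) had a 95% interval from -0.54 to 0.86, wide enough to hold a difference of the size seen for Tsc22d3. Its sign turned when a library was left out, with values from -0.27 without inguinal replicate 2 to 0.59 without inguinal replicate 1.

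Zbtb16 (chromosome 9, 48654297 to 48836222) encodes a zinc finger transcription factor that is strongly induced by glucocorticoids in many cell types. It stood at 105 and 109 CPM in the dermal pair and 153 and 109 CPM in the inguinal pair. The high value of inguinal replicate 1 stood alone, and the other 3 libraries agreed closely. The log2 fold change was -0.27 (SE 0.18, limma adjusted p = 0.343), with a 95% interval from -0.70 to 0.16. It was -0.03 without inguinal replicate 1 and -0.51 without inguinal replicate 2 (adjusted p = 0.0374, which passed).

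Klf9 and Errfi1 are early targets of the receptor that also respond to other signals. Klf9 (chromosome 19, 23141226 to 23168134) encodes a Krüppel-like transcription factor. It stood at 157 and 191 CPM in the dermal pair and 233 and 270 CPM in the inguinal pair, without overlap. The log2 fold change was -0.53 (SE 0.15, limma adjusted p = 0.0639), which did not pass, with a 95% interval from -0.90 to -0.16. It passed with DESeq2 (-0.54, adjusted p = 0.0494) and without inguinal replicate 1 (-0.64, adjusted p = 0.0242), so that it lay at the edge of the threshold.

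Errfi1 (chromosome 4, 150853919 to 150868892) encodes a feedback inhibitor of the epidermal growth factor receptor. It stood at 181 and 163 CPM in the dermal pair and 316 and 303 CPM in the inguinal pair. The libraries of each depot lay close together and the depots did not overlap. Errfi1 was 1.80-fold higher in inguinal libraries by the depot means, with a log2 fold change of -0.85 (SE 0.13, limma adjusted p = 0.00865). Leaving out dermal replicate 2 ended the call (-0.78, adjusted p = 0.0750). The 23 immediate early and stress genes had a median log2 fold change of -1.41 in the same libraries. Their part in the Errfi1 difference was not tested. Of 7 tested partners of Errfi1 and Sgk1, which included the receptor gene Egfr and the Sgk1-activating kinase gene Pdpk1, 0 passed with limma, 1 (Rictor) had an unadjusted p below 0.05, and edgeR and DESeq2 called 0. Egfr averaged 107 ± 8.52 CPM (SD, n = 2) in the dermal pair and 90.6 ± 8.96 CPM in the inguinal pair (limma adjusted p = 0.281). The depot means of Pdpk1 were 128 and 110 CPM in that order (adjusted p = 0.266).

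**Figure D2:**
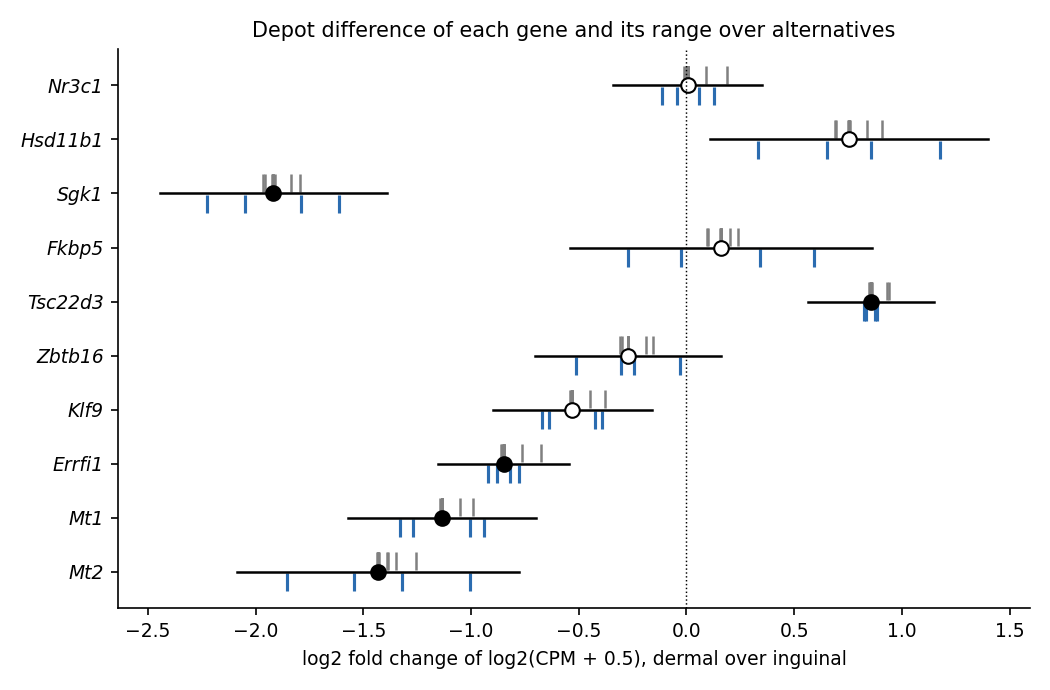
Log2 fold change, dermal over inguinal, of each gene with its 95% interval from limma (circle and line, filled where the adjusted p was below 0.05); grey ticks are the other processing choices and blue ticks the fits with 1 library left out. Sgk1, Mt1, Mt2 and Errfi1 stay below 0 and Tsc22d3 above 0 in each alternative, whereas Nr3c1 and Fkbp5 cross 0. Hsd11b1, Klf9 and Zbtb16, which were not called, also keep their sign.

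Mt1 and Mt2 encode metallothioneins, small cysteine-rich proteins that bind zinc and copper. Their transcription is induced by metal ions through the factor MTF1 and also by glucocorticoids. The genes are neighbours on chromosome 8, Mt2 at 94172664 to 94173568 and Mt1 at 94179082 to 94180327, with 5513 bases between them. Their annotated transcripts share no identical stretch longer than 20 bases, so reads could mostly be told apart. An annotated gene on the opposite strand, Gm45774, overlaps 73.5% of the exon bases of Mt2, so without strand the Mt2 value may include its reads.

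Mt1 stood at 329 and 251 CPM in the dermal pair and 576 and 692 CPM in the inguinal pair. Both inguinal libraries were well above both dermal ones. Mt1 was 2.19-fold higher in inguinal libraries by the depot means, with a log2 fold change of -1.14 (SE 0.18, limma adjusted p = 0.0109). Leaving out dermal replicate 2 ended the call (-0.94, adjusted p = 0.0549). Mt2 stood at 130.4 and 72.2 CPM in the dermal pair and 284 and 243 CPM in the inguinal pair. The dermal libraries differed 1.81-fold between themselves, and still lay below both inguinal libraries. Mt2 was 2.60-fold higher in inguinal libraries by the depot means, with a log2 fold change of -1.43 (SE 0.27, limma adjusted p = 0.0186), which ranged from -1.86 to -1.01 with each library left out.

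The promoter windows of both metallothionein genes are shown because both genes were higher in inguinal libraries and both windows hold the metal response element, the binding sequence of MTF1. It was searched as TGCACNC and TGCGCNC on both strands, with matches in capitals, in the windows chr8:94172368-94172667 and chr8:94178839-94179138 (GRCm38.p6, plus strand):
Mt2: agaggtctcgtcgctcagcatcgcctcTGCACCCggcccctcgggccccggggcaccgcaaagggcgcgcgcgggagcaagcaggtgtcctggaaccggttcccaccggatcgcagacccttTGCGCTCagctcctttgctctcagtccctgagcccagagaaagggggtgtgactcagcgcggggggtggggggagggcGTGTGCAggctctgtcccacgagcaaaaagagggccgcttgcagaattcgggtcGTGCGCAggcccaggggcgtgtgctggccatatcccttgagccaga
Mt1: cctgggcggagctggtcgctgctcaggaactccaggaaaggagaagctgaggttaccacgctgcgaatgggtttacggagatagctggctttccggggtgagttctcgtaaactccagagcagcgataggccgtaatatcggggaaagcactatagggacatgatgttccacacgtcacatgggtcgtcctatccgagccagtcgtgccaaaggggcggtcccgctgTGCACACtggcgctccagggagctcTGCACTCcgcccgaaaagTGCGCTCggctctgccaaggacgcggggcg
The Mt2 window held 4 matches and the Mt1 window 3. The element occurred in 4 of the 16 windows, the others being windows of Hsd11b1 and Sgk1, and in 25.7% of all promoter windows, so that its share was near the background. Of all windows 1.97% held at least 3 matches. The Mt1 window also held the other full glucocorticoid element, ggacatgatgttc, 94 bases before the RefSeq start.

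Other metal-responsive genes were read beside the metallothioneins. All 7 tested genes had negative log2 fold changes, with a median of -0.36, where 6218 of all 12797 tested genes were negative. Mt3, Mt4 and Slc30a10 of the list were not measured. With limma 3 of the 7 (Slc39a10, Slc39a14 and Gclc) had an unadjusted p below 0.05. Against 8.8% of all tested genes, 1 of the 7 passed, higher in inguinal libraries. That gene was Gclc, the catalytic subunit of the enzyme that starts glutathione synthesis, at 34.9 and 35.7 CPM in the dermal pair and 84.7 and 77.2 CPM in the inguinal pair (log2 fold change -1.19, SE 0.13, limma adjusted p = 0.00353). Mtf1, which encodes the metal-sensing factor, was at 15.8 and 16.0 CPM in the dermal pair and 15.5 and 19.1 CPM in the inguinal pair (adjusted p = 0.725). Slc30a1, a zinc exporter gene that MTF1 is known to induce, had a log2 fold change of -0.36 and did not pass (adjusted p = 0.211). Hmox1, the heme oxygenase gene, had the highest mean of the list and a log2 fold change of -0.17 (adjusted p = 0.483).

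The wider receptor pathway was described from lists of hormone supply, chaperones, coregulators and other responsive genes. Of 7 tested supply and clearance genes, 2 were higher in inguinal libraries, against 8.8% of all tested genes. Limma, edgeR and DESeq2 called 0 higher in dermal libraries, where 2 (Hsd11b1 and H6pd) had an unadjusted p below 0.05. The 2 genes, Abcb1a and Abcb1b, encode forms of the drug efflux pump P-glycoprotein, which exports glucocorticoids and is expressed by endothelial cells of barrier vessels. Abcb1a stood at 8.74 and 9.96 CPM in the dermal pair and 24.3 and 29.9 CPM in the inguinal pair (log2 fold change -1.48, SE 0.18, adjusted p = 0.00500), and Abcb1b had a log2 fold change of -1.20 (adjusted p = 0.00998). The endothelial sums given above moved the same way, and their part was not tested.

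Of all tested genes, 8.8% were higher in inguinal libraries, and the median log2 fold change was 0.02. Of 13 receptor chaperone genes, 1 was higher in inguinal libraries, which is near that share. The other 12 did not pass, and the median log2 fold change of the 13 was -0.28. The one was Hspa8, a constitutive heat shock cognate that loads the receptor onto its chaperone complex, at 2099 and 2065 CPM in the dermal pair and 3775 and 3529 CPM in the inguinal pair (log2 fold change -0.81, limma adjusted p = 0.0285). The call ended when dermal replicate 1 (adjusted p = 0.177) or dermal replicate 2 (0.203) was left out and when no filter was used (0.0901). Hsp90ab1, a chaperone of the unbound receptor, did not pass (-0.45, limma adjusted p = 0.216). Its relative Hsp90aa1, at 698 and 765 CPM in the dermal pair and 1307 and 882 CPM in the inguinal pair, did not pass either (-0.56, limma adjusted p = 0.129). DESeq2 called 2 chaperone genes higher in inguinal libraries, and the replicate block 5. Of 14 coregulator genes, 2 were higher in dermal libraries, against 7.56% of all tested genes. One of them was the histone methyltransferase gene Ehmt2 (log2 fold change 0.66, limma adjusted p = 0.0402). The Ehmt2 call ended when dermal replicate 1 (adjusted p = 0.0988), dermal replicate 2 (0.233) or inguinal replicate 1 (0.0568) was left out, with no filter (0.0583) and with no intensity trend (0.0839). Ncor1 and Nrip1, the coregulator genes with the highest means, had log2 fold changes of -0.31 and -0.25 and did not pass.

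Of 32 tested other glucocorticoid-responsive genes, 8 were higher in inguinal libraries, 3 were higher in dermal libraries and 21 did not pass, and the median was -0.30 on the log2 scale. The 8 held genes of metabolism and of the stress and inflammatory response. Pdk4, which restrains glucose oxidation, stood at 44.9 and 44.1 CPM in the dermal pair and 279 and 215 CPM in the inguinal pair (log2 fold change -2.45, SE 0.16, limma adjusted p = 0.00140). Thbs1, the gene of the matrix protein thrombospondin, led the list at 80.0 and 98.6 CPM in the dermal pair and 648 and 691 CPM in the inguinal pair (-2.91, SE 0.15, adjusted p = 0.000664). Nfil3, a leucine zipper repressor gene, had a log2 fold change of -1.86. Nfkbia, an inhibitor of NF-kappaB (-1.08), Cdkn1a, a cell cycle inhibitor (-0.86), Angptl4, a lipoprotein lipase inhibitor (-0.88), and Dusp1, a MAP kinase phosphatase (-0.85), were also among the 8. The immediate early and stress list (median -1.41) and the endothelial list (median -1.97) moved the same way. Their part in the differences of these 8 genes was not tested.

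Several of these calls depended on the setting. Leaving out dermal replicate 1 (adjusted p = 0.0651) or dermal replicate 2 (0.0868) ended the Cdkn1a call, and leaving out dermal replicate 2 that of Angptl4 (0.144). The Dusp1 call ended when dermal replicate 1 was left out (0.184), with no filter (0.0519), with no intensity trend (0.0683), with columns rescaled to 1 common sum (0.0593) and with quantile normalization (0.0837).

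The 3 responsive genes higher in dermal libraries were Cd163, Agt and Klf15. Klf15, a Krüppel-like factor gene induced by glucocorticoids in muscle, liver and fat, stood at 89.9 and 71.2 CPM in the dermal pair and 49.7 and 37.7 CPM in the inguinal pair (log2 fold change 0.88, SE 0.19, limma adjusted p = 0.0266). The call ended when dermal replicate 1 was left out (0.71, adjusted p = 0.146) and with no intensity trend (0.0605). Agt, which encodes angiotensinogen and is expressed by adipocytes, stood at 234 and 248 CPM in the dermal pair and 115 and 102 CPM in the inguinal pair (1.15, SE 0.13, adjusted p = 0.00362). Cd163, the haptoglobin-haemoglobin scavenger receptor gene, is a macrophage marker and stands in the macrophage list as well. It stood at 132 and 135 CPM in the dermal pair and 48.1 and 47.4 CPM in the inguinal pair (1.48, SE 0.12, adjusted p = 0.00182). The most abundant responsive genes, Acsl1 and Glul, had log2 fold changes of -0.35 and -0.51 and did not pass.

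**Figure D3:**
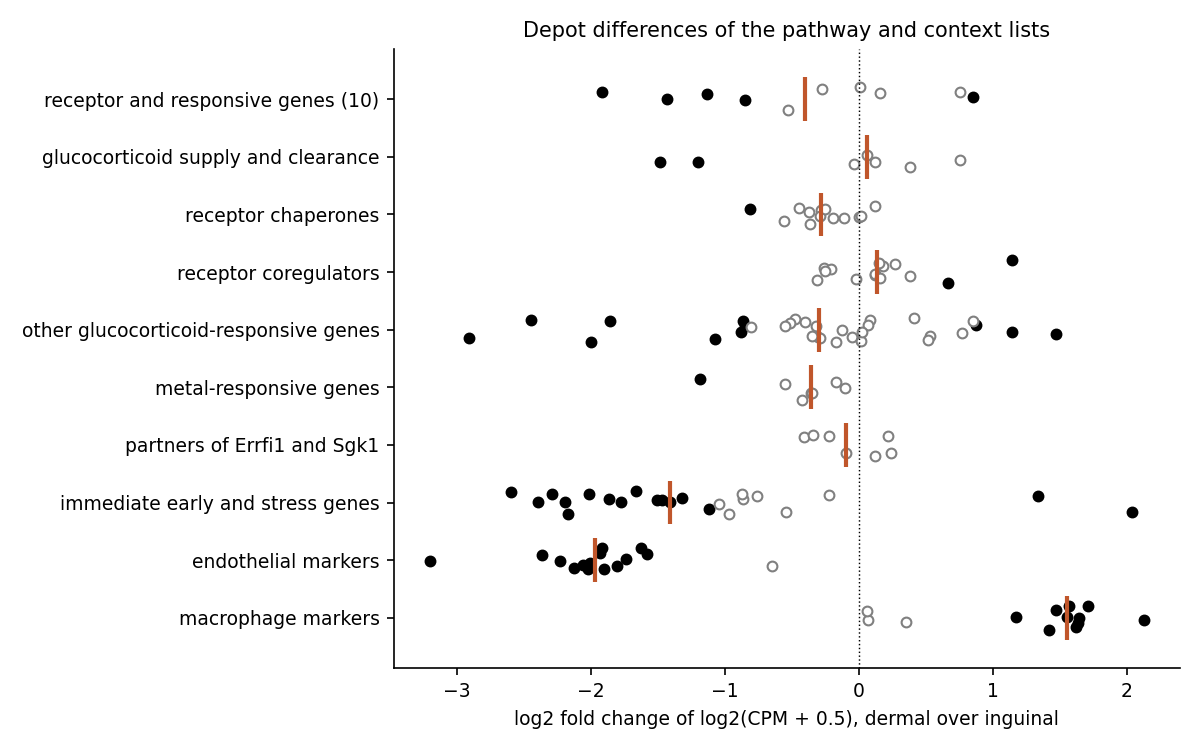
Log2 fold change, dermal over inguinal, of each tested gene (points, filled where the limma adjusted p was below 0.05), by list, with the list median as a vertical bar; vertical scatter is random and carries no value. Glucocorticoid-responsive genes lie on both sides of 0, whereas the endothelial and the immediate early lists lie mostly below 0 and the macrophage list above it.

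The profile of each gene over the 4 libraries, centred on its own mean, was set beside the profiles of 98 genes of these lists with a mean of at least 5 CPM. Likeness was the root mean square distance on the log2 scale, and with 4 libraries it is a description. Tsc22d3 was nearest to Klf15 (0.158) and Agt (0.161), and Hsd11b1 to Arrdc2 (0.205) and Klf15 (0.256). Sgk1 was nearest to Abcb1a (0.247) and Nfil3 (0.281), Mt2 to Mt1 (0.279) and Lcn2 (0.318), and Mt1 to Abcb1b (0.131) and Nfkbia (0.184). Errfi1 was nearest to Hspa8 (0.0488) and Cdkn1a (0.0526), and Klf9 to Slc30a1 (0.0904) and Sgk3 (0.0967). Fkbp5, whose replicate 1 was higher than replicate 2 in both depots, was nearest to the chaperone genes Ahsa1 (0.166) and Stip1 (0.197). Nr3c1 was nearest to Cdc37 (0.0631) and Mtf1 (0.067), and Zbtb16 to Gclm (0.0587) and Rgs2 (0.0716). Nr3c1, Cdc37 and Mtf1 all showed little depot difference (log2 fold changes 0.007, 0.017 and -0.105), so their likeness marks no shared change.

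The spread between libraries of a depot limited these comparisons unevenly. The inguinal libraries differed 1.83-fold for Fkbp5 and 1.80-fold for Hsd11b1, with replicate 1 the higher in both, but by 1.03-fold for Tsc22d3 and 1.04-fold for Errfi1. With 2 libraries per depot an exact two-sided permutation test of a single gene cannot go below p = 0.333, so the calls rest on the variance that limma shares across genes.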

How the data were processed

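RNA of purified mature adipocytes was sequenced in 4 libraries, 2 of dermal and 2 of inguinal adipocytes, grouped by sample title. A stranded kit for total RNA was used, per the labels' protocols. Tools and build named in the submitters' processing notes are mm10, TopHat2 2.0.12, featureCounts, Subread 1.4.6, Picard 1.127 and edgeR, with no settings. Sources used here do not give the strand setting of the counting. The deposited signal is CPM per gene. Its columns do not share 1 sum, from which a size factor beside the library total was inferred. In each column 100% of values were whole multiples of 1 step within 0.001, so whole reads could be recovered, between 10127125 and 12730013 per library.

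The filter asked for 1 CPM or more in 2 or more of the 4 libraries. The two-sided test was limma 3.58.1 (R 4.3.3), fitted to log2(CPM + 0.5) with its trend option. Benjamini-Hochberg adjustment ran over all 12797 tested genes, and the threshold was 0.05. The scale understates fold changes of low genes. Alternatives were edgeR 4.0.16 and DESeq2 1.42.0 on the recovered reads, other pseudocounts, filters and scalings, a replicate block and leaving out each library. The tests were checked on simulated counts, where planted changes were recovered and the share of false calls exceeded the threshold, so the calls here may hold more false ones than 0.05 implies.

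The 10 genes and all lists were chosen with earlier results of these data known. Besides the 10 genes, the rule named in each pathway list up to 4 genes with the smallest adjusted p among those that passed and the 2 with the highest mean, and in each context list the 2 with the highest mean. Of the pathway genes called, 2 are not reported here by name. Other genes in the text were named after their values were seen. No label ties replicates to separate animals, so the spread behind the p-values is that between these libraries and may be technical. Gene positions and exon lengths came from GENCODE M21 on GRCm38, which corresponds to mm10. Promoter windows came from RefSeq on GRCm38.p6 and matched 8 of the 10 genes, Nr3c1 and Zbtb16 being the others.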

Additional observations from a re-analysis of the deposited data

How the results depend on the processing

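Of the 5 genes called, Sgk1 and Mt2 passed under all 14 alternatives, and Tsc22d3, Mt1 and Errfi1 under 13, the losses being those given above with a dermal library left out. With each library left out the number of the 10 genes higher in dermal libraries ranged from 0 to 2 and the number higher in inguinal libraries from 2 to 5. For all tested genes these numbers ranged from 305 to 1221 and from 556 to 1380, with 397 and 305 higher in dermal libraries without dermal replicates 1 and 2, and for the pathway lists together from 3 to 11 and from 12 to 21. In these fits the depot with 1 library is assumed to vary like the other. The main numbers were 968 and 1126 for all genes and 7 and 15 for the pathway lists. On the recovered reads edgeR called 923 of all genes towards the dermal side and 1133 towards the inguinal side, against 823 and 1162 by DESeq2. Without the intensity trend 4 pathway genes were higher in dermal libraries. Of the 22 pathway genes called, 12 passed under every alternative.

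Nr3c1 changed sign with edgeR (-0.0035), with DESeq2 (-0.011) and without dermal replicate 2 (-0.046) or inguinal replicate 1 (-0.11), ranging from -0.11 to 0.13 with each library left out. Fkbp5 changed sign without dermal replicate 1 (-0.024) and inguinal replicate 2 (-0.27), ranging from -0.27 to 0.59. The causes were not tested.

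The replicate numbers are shared between depots, but no label says that a number marks an animal, litter or day. Deviations of same-numbered libraries correlated at 0.464 across genes. With the replicate block, 2342 and 2384 of all genes were higher in dermal and inguinal libraries, 2 and 5 of the 10 genes, and 15 and 32 of the pathway genes. Hsd11b1 (adjusted p = 0.00438) and Klf9 (adjusted p = 0.00180) then passed.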

Other observations

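Relatives of the described genes also differed between depots. Among 15 tested relatives, dermal libraries were the higher for 3 and inguinal libraries for 3, with a median log2 fold change of -0.29 (limma). Over all tested genes the shares were 7.56% and 8.8%. Klf15, among the 3 higher in dermal libraries, was also counted above with the other responsive genes. Within the Tsc22 family, Tsc22d4 was higher in dermal libraries like Tsc22d3, at 31.2 and 41.9 CPM against 15.5 and 18.7 CPM (log2 fold change 1.06, SE 0.20, adjusted p = 0.0177). Tsc22d2 was higher in inguinal libraries, at 135 and 121 CPM against 73.5 and 75.6 CPM in dermal libraries (-0.77, SE 0.13, adjusted p = 0.0124). Leaving out dermal replicate 2 ended the Tsc22d4 call (adjusted p = 0.0966), and leaving out dermal replicate 1 (0.0854) or dermal replicate 2 (0.0692) that of Tsc22d2.

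Among Krüppel-like factor genes, Klf6 and Klf4 were higher in inguinal libraries and Klf15 higher in dermal libraries. Klf6, an early regulator in adipocyte differentiation, stood at 437 and 533 CPM in the dermal pair and 1393 and 1250 CPM in the inguinal pair (log2 fold change -1.45, SE 0.16, limma adjusted p = 0.00368). Klf4 stood at 43.0 and 65.9 CPM in the dermal pair and 125 and 167 CPM in the inguinal pair (-1.43, SE 0.24, adjusted p = 0.0126). Klf10 had a log2 fold change of -1.27 and did not pass (adjusted p = 0.131). Klf4 and Klf6 are also expressed by endothelial cells and respond to tissue dissociation, and the part of those marker lists in these differences was not tested.

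The heat shock genes Hspa1a and Hspa1b were the 2 of the immediate early and stress list that were higher in dermal libraries. Hspa1a stood at 188 and 255 CPM in the dermal pair and 102 and 73.2 CPM in the inguinal pair (log2 fold change 1.34, SE 0.21, limma adjusted p = 0.0113). The receptor chaperone Hspa8 was higher in inguinal libraries, as given above. Hspa1a and Hspa1b are near-identical copies, so the split of reads between them is uncertain.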
